A study of Homo sapiens with 60 samples.

Results

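The nuclear genes for 10 factors that transcribe, copy or maintain mitochondrial RNA and DNA were followed in A549, an established line of human lung carcinoma cells, treated for 24 h. They are TFAM, POLRMT, TFB1M, TFB2M, TEFM, POLG, LRPPRC, SLIRP, PNPT1 and SUPV3L1, chosen by name with earlier results of these data known. All 10 were found by Ensembl identifier among the 60675 genes of the deposited count table, and all 10 were among the 17129 genes with enough counts to be tested. The 60 libraries form 20 groups of 3. Coptidis Rhizoma (CR), the rhizome of Coptis, was given as a hot-water extract at 5.2, 26 or 130 µg/mL. Wortmannin, an inhibitor of phosphoinositide 3-kinases, was given at 10 µM and served as the positive control. The water extracts of Zingiberis Rhizoma Recens (ZRR), Zingiberis Rhizoma (ZR), Pinelliae Tuber (PT) and jujube, Zizyphi Fructus (ZF), were used at 20, 100 or 500 µg/mL, and that of Scutellariae Radix (SR) at 9.2, 46 or 230 µg/mL. The vehicle was 0.1% DMSO by the sample labels, whose treatment entries name no DMSO for the extract and wortmannin groups, so a difference in solvent and the treatment cannot be told apart in comparisons with vehicle. The design text sets a high dose below 500 µg/mL, as for CR and SR, by the IC20, so doses of different extracts were not matched.

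Human mitochondrial DNA is transcribed from both strands as long precursors that are cut into 2 ribosomal RNAs, messenger RNAs and transfer RNAs. POLRMT is the RNA polymerase of mitochondria, TFAM packages the DNA and bends its promoters, TFB2M opens the promoter with the polymerase, and TEFM keeps the polymerase elongating. TFB1M, a relative of TFB2M, methylates the small ribosomal RNA, and POLG is the catalytic subunit of the polymerase that copies the DNA. LRPPRC and SLIRP form a complex that stabilises mitochondrial messenger RNAs, and PNPT1 (a 3′ to 5′ exoribonuclease) and SUPV3L1 (an RNA helicase) together degrade mitochondrial RNA. All 10 proteins are encoded in the nucleus and imported.

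The promoters of several of these genes are known for sites of the nuclear respiratory factor NRF1, so the 250 bases before the start of each gene were read from RefSeq (GRCh38.p14). All 10 genes matched, with 11 windows because SLIRP has 2 starts. Both strands were searched for GCGC, any base, then TGCGC (NRF1), CCGGAAG (ETS factors, to which GABPA belongs), CACGTG (the E-box) and GGGGCGGGG (SP1). The windows below belong to POLRMT, to both other genes with an NRF1 match, and to LRPPRC and SUPV3L1, which have no match. These 2 were picked because their RNA was higher in the highest CR dose. POLG, whose window is not printed, had no match either and was lower there (log2 fold change -0.17). TFAM (-0.073) and TFB1M (0.19), both with an NRF1 match, were not called there. A part of NRF1 in these changes was not tested. Each is written 5′ to 3′ along the gene's strand, and capitals mark matches of any of the 4 motifs.
POLRMT: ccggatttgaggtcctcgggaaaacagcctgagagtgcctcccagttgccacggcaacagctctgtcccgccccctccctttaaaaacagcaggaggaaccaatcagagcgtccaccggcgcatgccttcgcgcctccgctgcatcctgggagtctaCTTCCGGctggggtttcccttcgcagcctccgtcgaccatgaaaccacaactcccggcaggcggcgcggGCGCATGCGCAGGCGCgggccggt
TFAM: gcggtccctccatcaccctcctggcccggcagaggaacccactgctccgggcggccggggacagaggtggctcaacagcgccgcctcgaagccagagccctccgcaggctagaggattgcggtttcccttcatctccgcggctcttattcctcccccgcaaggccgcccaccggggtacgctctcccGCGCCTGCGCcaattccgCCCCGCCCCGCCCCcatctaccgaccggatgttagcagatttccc
TFB1M: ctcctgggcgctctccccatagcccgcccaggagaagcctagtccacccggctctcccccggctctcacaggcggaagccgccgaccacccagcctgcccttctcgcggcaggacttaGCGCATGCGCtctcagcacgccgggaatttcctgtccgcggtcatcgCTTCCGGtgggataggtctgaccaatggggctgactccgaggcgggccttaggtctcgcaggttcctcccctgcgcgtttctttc
LRPPRC: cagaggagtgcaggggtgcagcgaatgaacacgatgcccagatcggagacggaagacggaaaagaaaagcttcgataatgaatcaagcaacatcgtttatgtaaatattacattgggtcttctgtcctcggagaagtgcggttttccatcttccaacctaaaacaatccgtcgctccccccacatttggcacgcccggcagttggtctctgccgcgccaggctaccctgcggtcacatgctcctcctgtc
SUPV3L1: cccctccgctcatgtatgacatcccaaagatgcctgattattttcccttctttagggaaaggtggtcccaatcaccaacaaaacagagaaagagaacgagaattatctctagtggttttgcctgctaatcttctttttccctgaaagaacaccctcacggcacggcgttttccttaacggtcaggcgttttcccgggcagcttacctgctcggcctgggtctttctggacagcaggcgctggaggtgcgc

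POLRMT (chr19:633538-633787, minus strand) held 2 overlapping NRF1 matches that began 24 and 18 bases before the start and 1 ETS match at 93 bases. TFAM (chr10:58385160-58385409, plus strand) held 1 NRF1 match at 63 bases and 2 overlapping SP1 matches at 45 and 40 bases. TFB1M (chr6:155314485-155314734, minus strand) held 1 NRF1 match at 132 bases and 1 ETS match at 85 bases. LRPPRC (chr2:43995990-43996239, minus strand) and SUPV3L1 (chr10:69179984-69180233, plus strand) held none of the 4 motifs, and neither did TFB2M, TEFM, POLG or PNPT1, while SLIRP held 1 ETS match in each window. Over 27305 human promoters of the same length, 5.53% held the NRF1 motif, 8.82% the ETS motif, 6.49% the E-box and 15.4% the SP1 motif. A match describes letters only, and its absence says only that these exact letters were not in the window.

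Read totals were 17420400 to 36479600 estimated counts per library, and the lowest correlation between replicates was 0.982 on log counts. Nothing in the labels says that replicates came from separate cultures, so the p-values cover the spread between these samples alone, and that spread may be technical. All 8 markers of A549 and epithelial cells were present, with a summed level of 13000 to 13300 CPM in 130 µg/mL CR and 15200 to 15700 CPM in vehicle. In any library the endothelial markers summed to at most 0.354 CPM, the blood markers to 3.54 CPM and the fibroblast markers to 6.38 CPM. Markers of alveolar type II cells summed to 35.5 to 36.9 CPM in 130 µg/mL CR and 22 to 23.2 CPM in vehicle. That sum was mostly 1 gene, ABCA3, with a mean of 22.2 CPM over the 60 libraries. Only 2 of the 6 markers averaged over 1 CPM, and NAPSA, the other, had 1.04 CPM. The surfactant genes were near or at 0 (SFTPB 0.0666, SFTPC 0.0431 and SFTPA1 0 CPM). The first part of the sample code was shared by CR and ZF, but no treated group shared it with vehicle, and CR and wortmannin differed in it. That part of the code and the treatment cannot be told apart in any comparison with vehicle, nor in CR against wortmannin. In bulk RNA, fewer cells with an RNA and less of it per cell cannot be told apart.

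In vehicle the 10 genes spanned a wide range of RNA levels per transcript length. SLIRP stood highest at 252 ± 25.8 TPM (transcripts scaled to a fixed total, SD, n = 3 here and for all levels), and its partner LRPPRC followed at 173 ± 8.09 TPM. PNPT1 at 50.5 ± 1.94, TFAM at 50.1 ± 2.18 and TFB2M at 48.9 ± 2.35 TPM did not differ beyond their spread. The RNA helicase SUPV3L1 had 40.8 ± 1.63, the polymerase POLRMT 36.0 ± 0.72, the DNA polymerase POLG 25.4 ± 1.12, TEFM 18.8 ± 1.57 and TFB1M 10.8 ± 0.56 TPM. TFB1M rests on few reads, with a mean of 155 counts per library against 10560 for LRPPRC. The levels that follow are normalised read counts (CPM, counts scaled to a fixed library total), which compare 1 gene between groups.

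The main result of the CR series lay at 130 µg/mL. RNA of the polymerases POLRMT and POLG was lower than in vehicle there, and RNA of LRPPRC and SUPV3L1 was higher. PNPT1 was higher at the edge of the test (edgeR adjusted p = 0.0453), and its call was lost in 11 of 14 alternative settings. The changes were small, the largest being a fall to 0.836 of vehicle. Of the 10 genes, 5 passed edgeR's test at an adjusted p under 0.05, 3 higher and 2 lower. Over all genes tested 35.1% passed, 18.5% higher and 16.7% lower, so 5 of 10 is not far above the background of a dose that moved much of the transcriptome. The count was 2 without vehicle replicate 1, 3 without vehicle replicate 2 or without replicate 2 of 130 µg/mL, and 1 with no filter on low counts. The median size of the log2 fold change was 0.11 over the 10 genes and 0.22 over all genes.

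**Figure D1:**
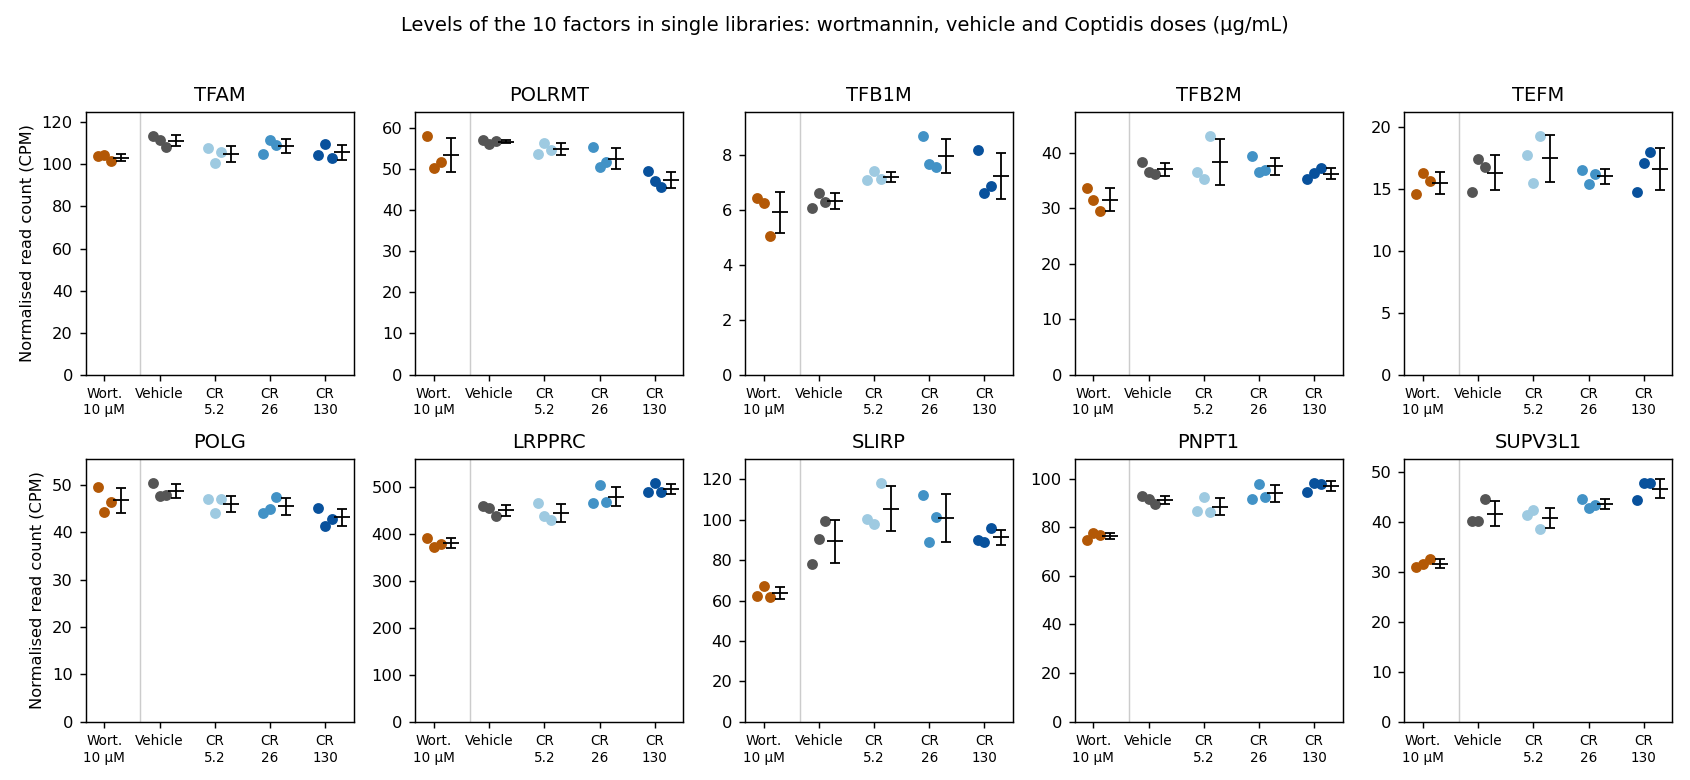
Normalised read count (CPM, linear axes from 0) of each factor in single libraries of wortmannin, vehicle and the 3 CR doses in µg/mL. Points are libraries, and the mark with bars beside them is the mean ± SD (n = 3). POLRMT lies at 45.5 to 49.5 CPM in 130 µg/mL CR and at 56.2 to 56.9 CPM in vehicle.

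POLRMT was measured at 56.9, 56.2 and 56.8 CPM in vehicle, at 53.5, 56.4 and 54.7 CPM in 5.2 µg/mL CR, at 55.4, 50.4 and 51.7 CPM in 26 µg/mL, and at 49.5, 47.0 and 45.5 CPM in 130 µg/mL. All 3 libraries of the highest dose lay below every library of vehicle and of both lower doses. The log2 fold change of 130 µg/mL against vehicle was -0.26 ± 0.05 (SE, edgeR adjusted p = 0.000144), and against 5.2 µg/mL it was -0.21 ± 0.05 (adjusted p = 0.00249). Against 26 µg/mL the difference of -0.15 ± 0.05 did not pass (adjusted p = 0.088), nor did 26 µg/mL against vehicle at -0.11 ± 0.05 (adjusted p = 0.145). POLRMT kept its call against vehicle in all 14 alternative settings, with log2 fold changes of -0.29 to -0.23.

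POLG, the polymerase of mitochondrial DNA, had 50.4, 47.8 and 47.9 CPM in vehicle, 47.0, 44.0 and 47.0 CPM in 5.2 µg/mL CR, 44.1, 45.0 and 47.5 CPM in 26 µg/mL, and 45.2, 41.4 and 42.9 CPM in 130 µg/mL. At each dose all 3 CR libraries lay below all 3 vehicle libraries. The test was passed by 130 µg/mL only, at -0.17 ± 0.06 on the log2 scale (edgeR adjusted p = 0.0106), and 130 against 5.2 µg/mL gave -0.092 ± 0.055 (adjusted p = 0.231). Without vehicle replicate 1, without replicate 2 of 130 µg/mL, or with no filter the call was lost, with adjusted p up to 0.102 over the 14 settings. POLG shares 458 exonic bases on the opposite strand with FANCI, a DNA repair gene with a mean of 3650 counts, and the sources used here name no strand setting of the counting.

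LRPPRC was the most abundant of the 10 by count. It had 459, 455 and 437 CPM in vehicle, 466, 438 and 429 CPM in 5.2 µg/mL CR, 467, 504 and 468 CPM in 26 µg/mL, and 489, 508 and 489.9 CPM in 130 µg/mL. The highest dose lay above every library of vehicle and of 5.2 µg/mL and overlapped 26 µg/mL. Its log2 fold change was 0.14 ± 0.04 against vehicle (edgeR adjusted p = 0.00328) and 0.16 ± 0.04 against 5.2 µg/mL (adjusted p = 0.00139). The first call was lost with no filter on low counts (adjusted p = 0.111), and the second with no filter and with only the libraries compared (adjusted p up to 0.0764). SLIRP, its partner, did not pass between CR doses or against vehicle: 130 µg/mL held 91.4 ± 3.72 CPM, against 89.4 ± 10.6 CPM in vehicle, a log2 fold change of 0.033 with a 95% interval of -0.23 to 0.30. Its 3 libraries of 130 µg/mL, at 89.8, 88.8 and 95.7 CPM, lay below those of 5.2 µg/mL, at 100.3, 98.1 and 118 CPM (log2 fold change -0.21 ± 0.13, adjusted p = 0.279). With no filter, SLIRP was called lower in 130 than in 5.2 µg/mL (adjusted p = 0.0235) and higher in 5.2 µg/mL than in vehicle (adjusted p = 0.00465).

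Both RNA degradation genes were higher in 130 µg/mL CR, PNPT1 only at the edge of the test against vehicle. SUPV3L1 had 40.2, 40.2 and 44.6 CPM in vehicle, 41.5, 42.4 and 38.5 CPM in 5.2 µg/mL, 44.6, 42.7 and 43.4 CPM in 26 µg/mL, and 44.4, 47.7 and 47.7 CPM in 130 µg/mL. One library of the highest dose lay below the highest vehicle library, so these groups overlapped, while all 3 lay above those of 5.2 µg/mL. The log2 fold change was 0.16 ± 0.05 against vehicle (edgeR adjusted p = 0.00776) and 0.19 ± 0.05 against 5.2 µg/mL (adjusted p = 0.003). The first call was lost without vehicle replicate 1 or replicate 2 and with no filter (adjusted p up to 0.0981 over 14 settings). The second was lost without replicate 3 of 5.2 µg/mL, with no filter and with only the libraries compared (adjusted p up to 0.0572).

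PNPT1, which acts with SUPV3L1, had 92.7, 91.7 and 89.5 CPM in vehicle, 86.6, 92.4 and 86.5 CPM in 5.2 µg/mL CR, 91.5, 97.9 and 92.3 CPM in 26 µg/mL, and 94.7, 98.1 and 97.9 CPM in 130 µg/mL. The highest dose lay above all vehicle libraries, by 0.086 ± 0.034 on the log2 scale, at the edge of the test (edgeR adjusted p = 0.0453). That call was lost in 11 of 14 settings, among them the fits without any 1 vehicle library or without replicate 2 or 3 of 130 µg/mL, with adjusted p up to 0.49. The larger difference from 5.2 µg/mL, 0.13 ± 0.03, passed (adjusted p = 0.00311) and was lost in 2 of 14 settings.

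Of the initiation and elongation factors, TFAM, TFB2M and TEFM passed neither between CR doses nor against vehicle. TFAM averaged 111 ± 2.60 CPM in vehicle, 105 ± 3.76 CPM in 5.2 µg/mL CR, 109 ± 3.36 CPM in 26 µg/mL and 106 ± 3.57 CPM in 130 µg/mL. TFB2M averaged 37.1 ± 1.2 CPM in vehicle, 38.4 ± 4.11 CPM in 5.2 µg/mL, 37.6 ± 1.53 CPM in 26 µg/mL and 36.3 ± 0.97 CPM in 130 µg/mL. TEFM averaged 16.3 ± 1.38 CPM in vehicle, 17.5 ± 1.90 CPM in 5.2 µg/mL, 16.0 ± 0.59 CPM in 26 µg/mL and 16.6 ± 1.68 CPM in 130 µg/mL. In all 3 genes the libraries of the highest dose overlapped those of vehicle. At 130 µg/mL the 95% intervals of the log2 fold change against vehicle were -0.15 to 0.007 for TFAM, -0.18 to 0.11 for TFB2M and -0.18 to 0.23 for TEFM. TFB1M, the ribosomal RNA methyltransferase, had 6.07, 6.63 and 6.30 CPM in vehicle, 7.09, 7.42 and 7.14 CPM in 5.2 µg/mL, 8.70, 7.67 and 7.57 CPM in 26 µg/mL, and 8.20, 6.63 and 6.89 CPM in 130 µg/mL. It was the 1 gene of 10 called at 26 µg/mL, where 23.2% of all genes were called, 12.1% higher and 11.1% lower, at 0.33 ± 0.12 on the log2 scale (edgeR adjusted p = 0.0442). That call was lost in 10 of 14 settings, including each of the 6 fits without 1 library (adjusted p up to 0.21). TFB1M shares 215 exonic bases on the opposite strand with TIAM2. TEFM, with a mean of 391 counts, shares 301 with ADAP2 (mean 113 counts). It also shares 542 with the antisense gene AC130324.3 (mean 88.2 counts), both on the opposite strand.

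At 5.2 µg/mL none of the 10 was called against vehicle, where edgeR called 17.7% of all genes (8.51% higher and 9.15% lower), and 1 gene, TFAM, had an unadjusted p under 0.05. DESeq2 also called none there. For 130 against 5.2 µg/mL, 4 of 10 were called, 3 higher and 1 lower, beside 25.4% of all genes, 13.1% higher and 12.3% lower. Neither neighbouring step gave a call: 0 of 10 for 130 against 26 µg/mL beside 7.53% of all genes, with 1 at an unadjusted p under 0.05 and 1 called by DESeq2 (POLRMT), and 0 of 10 for 26 against 5.2 µg/mL beside 3.1%, with 2 at an unadjusted p under 0.05 and 1 called by DESeq2 (LRPPRC).

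**Figure D2:**
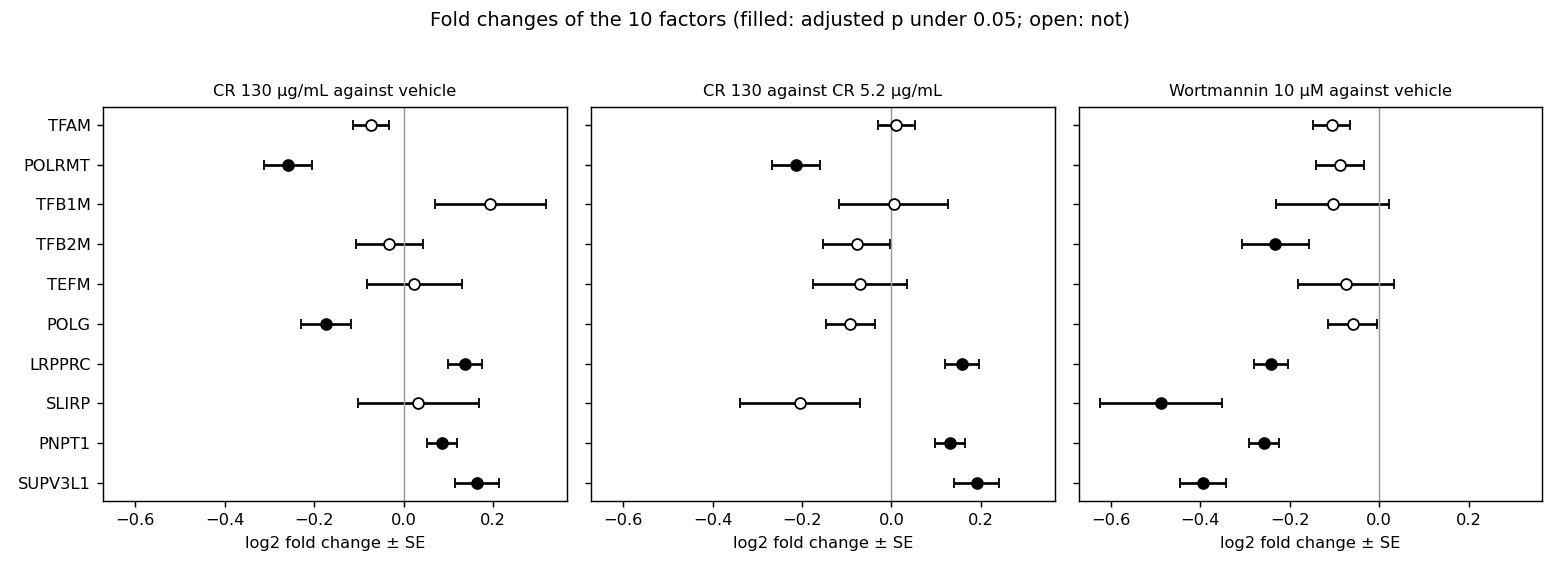
Log2 fold change ± SE (horizontal axis) of the 10 factors, 1 row per gene, for 130 µg/mL CR against vehicle, 130 against 5.2 µg/mL CR, and wortmannin against vehicle, from edgeR with 3 libraries a group. Filled points passed an adjusted p under 0.05: in both left panels POLRMT lies left of 0 and LRPPRC, PNPT1 and SUPV3L1 right of it, and under wortmannin all 5 filled points lie left of 0.

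Fold changes against vehicle went with transcript length in CR and in the other extracts alike. Across 12415 genes the Spearman rho of log2 fold change with length was -0.56 for 5.2 µg/mL CR, -0.37 for 26 µg/mL and -0.14 for 130 µg/mL. In the other extract groups it ran from -0.64 at the middle ZR dose to -0.19 at the highest ZR dose. The highest and lowest ZF doses had -0.549 and -0.546, and wortmannin had 0.049. A negative value against vehicle was therefore not particular to CR. For 130 against 5.2 µg/mL CR, which does not involve vehicle, rho was 0.33. By longest transcript the order was LRPPRC (6335 bases), TFAM (5414), POLG (4668), PNPT1 (4411), POLRMT (3835), SUPV3L1 (2484), TEFM (2109), TFB2M (1848), TFB1M (1424) and SLIRP (865). For 130 against 5.2 µg/mL the log2 fold changes, in the same order, were 0.16, 0.011, -0.092, 0.13, -0.21, 0.19, -0.070, -0.078, 0.005 and -0.21. Whether transcript length is a cause of any of the calls was not tested. With the length slope of each library as a covariate, POLRMT, LRPPRC, PNPT1 and SUPV3L1 stayed called for 130 against 5.2 µg/mL and POLG was added. Without the 4 libraries of lowest slope, which include replicate 3 of 5.2 µg/mL, the same 4 genes were called.

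RNA of the mitochondrial genome, the product of these factors, changed far more than the factors did. The small ribosomal RNA MT-RNR1 had 1533 ± 83.0 CPM in vehicle, 31140 ± 3850 CPM in 5.2 µg/mL CR, 36330 ± 2970 CPM in 26 µg/mL and 22300 ± 1370 CPM in 130 µg/mL. It was higher than in vehicle by 20.3-fold at 5.2 µg/mL (edgeR adjusted p = 1.91e-34), 23.7-fold at 26 µg/mL (adjusted p = 3.21e-35) and 14.5-fold at 130 µg/mL (adjusted p = 6.94e-33). The large ribosomal RNA MT-RNR2 was higher by 3.60-fold at 5.2 µg/mL, 4.06-fold at 26 µg/mL and 2.06-fold at 130 µg/mL. At 5.2 µg/mL, where none of the 10 factors was called, 6 of the 15 mitochondrial messenger and ribosomal RNAs were higher and 6 lower. Over all genes 8.51% were higher and 9.15% lower at that dose.

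The messenger RNAs differed among themselves. MT-CO1, which encodes a catalytic subunit of cytochrome oxidase, had 16790 ± 422 CPM in vehicle, 9432 ± 2540 CPM in 5.2 µg/mL CR, 7790 ± 1050 CPM in 26 µg/mL and 7958 ± 506 CPM in 130 µg/mL. It was lower at all 3 doses (log2 fold changes of -0.83 at 5.2, -1.11 at 26 and -1.08 at 130 µg/mL, edgeR adjusted p at most 6.45e-07). MT-ND5, a subunit of complex I, had 3439 ± 144 CPM in vehicle, 19430 ± 4240 in 5.2, 6135 ± 1230 in 26 and 1928 ± 254 CPM in 130 µg/mL, higher at both lower doses and lower at the highest. MT-CYB, the cytochrome b of complex III, did likewise, with log2 fold changes of 1.77 at 5.2, 1.23 at 26 and -0.62 at 130 µg/mL.

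MT-ND6, the 1 messenger RNA encoded on the other strand, was higher by 5.74-fold at 5.2 µg/mL and 2.33-fold at 26 µg/mL and did not pass at 130 µg/mL (log2 fold change -0.29 ± 0.16, edgeR adjusted p = 0.158). Its reads and antisense reads of MT-ND5 cannot be told apart without the strand setting. Of the 15 RNAs, 5 were higher and 10 lower at 26 µg/mL, and 2 were higher and 12 lower at 130 µg/mL. Over all genes 12.1% were higher and 11.1% lower at 26 µg/mL, and 18.5% higher and 16.7% lower at 130 µg/mL. The median log2 fold change of the 15 at 130 µg/mL was -0.79, against 0.008 over all genes. Mitochondrial RNA made up 9.8% of counts in vehicle, 18% in 5.2 µg/mL CR, 16.3% in 26 µg/mL and 10.8% in 130 µg/mL. With mitochondrial genes left out of the normalisation, POLRMT, POLG, LRPPRC and SUPV3L1 stayed called for 130 µg/mL against vehicle and PNPT1 did not. The sources used here do not say how messenger RNA was selected for the libraries, and its part in the ribosomal RNA counts was not tested.

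**Figure D3:**
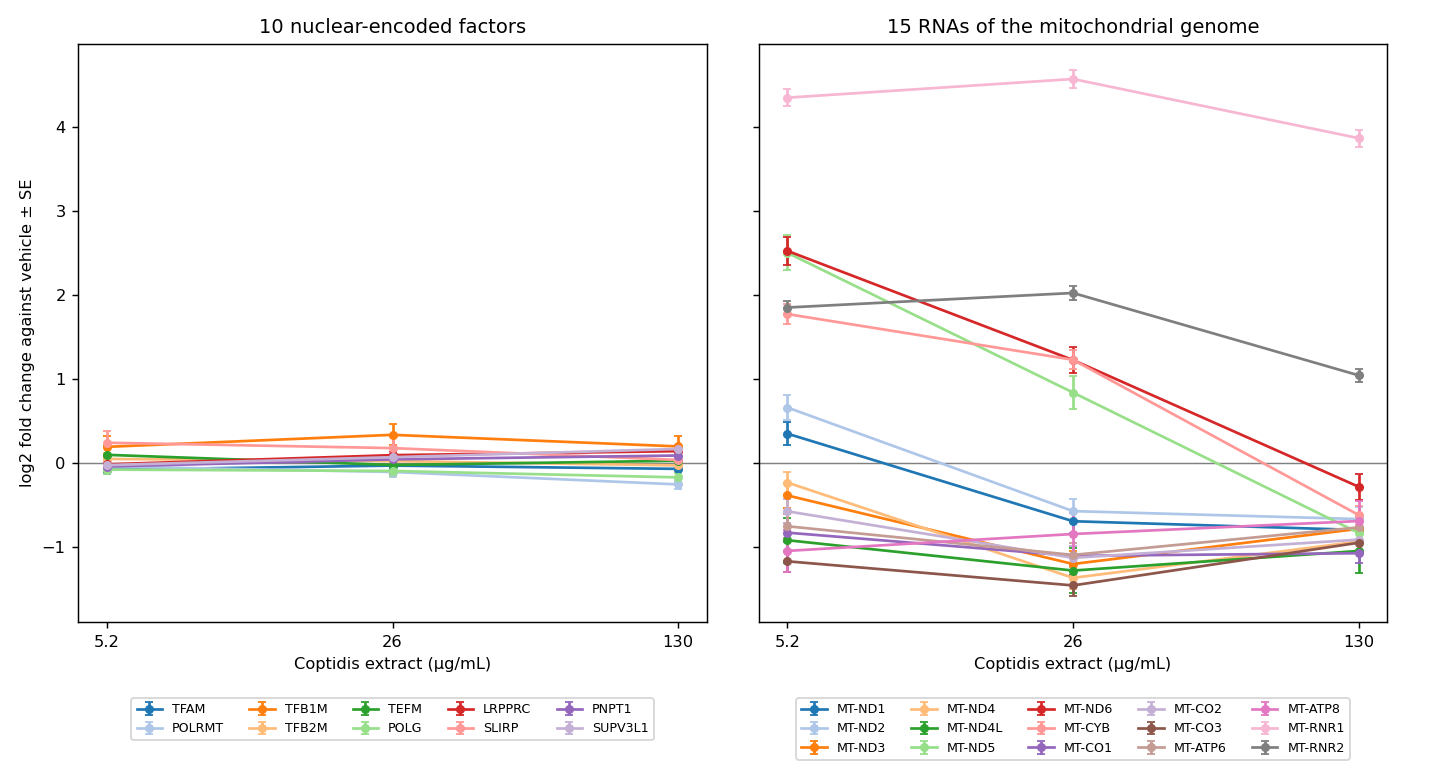
Log2 fold change against vehicle ± SE (vertical axis, shared) at 5.2, 26 and 130 µg/mL CR (horizontal axis, evenly spaced doses) for the 10 nuclear-encoded factors on the left and 15 RNAs of the mitochondrial genome on the right, each line 1 gene, 3 libraries a group. The factors stay within 0.332 of 0, while MT-RNR1 lies between 3.86 and 4.57 and MT-CO1 between -1.11 and -0.83.

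Under wortmannin both partners of the messenger RNA stability complex and both RNA degradation genes were lower than in vehicle. Of these, LRPPRC and SUPV3L1 were higher than vehicle in the highest CR dose, and PNPT1 was so only at the edge of the test. By edgeR 5 of the 10 were lower and 0 higher under wortmannin, beside 25.3% of all genes called, 13.4% higher and 11.9% lower. The median log2 fold change of the 10 was -0.17, against 0.010 over all genes. Wortmannin and CR were each compared with the same 3 vehicle libraries.

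SLIRP showed the largest fall. It had 62.3, 67.1 and 61.7 CPM under wortmannin, against 78.2, 90.7 and 99.3 CPM in vehicle. The groups did not overlap, and the log2 fold change was -0.49 ± 0.14 (edgeR adjusted p = 0.00618). SLIRP shares 118 exonic bases on the opposite strand with SNW1 and 275 on its own strand with C14orf178, whose mean count was 0.417.

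LRPPRC fell with it, at 392, 373 and 378 CPM under wortmannin, against 459, 455 and 437 CPM in vehicle (log2 fold change -0.24 ± 0.04, edgeR adjusted p = 2.37e-06). SUPV3L1 had 30.9, 31.5 and 32.6 CPM under wortmannin, against 40.2, 40.2 and 44.6 CPM in vehicle (-0.39 ± 0.05, adjusted p = 4e-08). PNPT1 had 74.9, 77.5 and 76.9 CPM under wortmannin, against 92.7, 91.7 and 89.5 CPM in vehicle (-0.26 ± 0.03, adjusted p = 8.34e-08). In none of these genes did the wortmannin and vehicle libraries overlap, and LRPPRC, SLIRP, PNPT1 and SUPV3L1 kept their calls in all 14 settings.

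TFB2M, the promoter-opening factor, was the fifth, with 33.7, 31.5 and 29.6 CPM under wortmannin, against 38.5, 36.6 and 36.3 CPM in vehicle (log2 fold change -0.23 ± 0.07, edgeR adjusted p = 0.0179). Its call was lost without vehicle replicate 1 or wortmannin replicate 3 (adjusted p up to 0.124 over 14 settings). TFAM lay just outside, with 104, 105 and 102 CPM under wortmannin, against 114, 112 and 108 CPM in vehicle (-0.11 ± 0.04, adjusted p = 0.0516), and it passed in 7 of 14 settings. POLRMT did not pass, at 53.3 ± 4.13 CPM under wortmannin and 56.6 ± 0.40 CPM in vehicle (-0.088 ± 0.054, adjusted p = 0.254). Wortmannin replicate 1 stood at 58.0 CPM and the other libraries at 50.2 and 51.7 CPM, and without that library POLRMT was called lower (-0.17, adjusted p = 0.026). Of the mitochondrial RNAs, 2 of 15 were lower under wortmannin, MT-RNR1 (-0.40 ± 0.09, adjusted p = 0.000689) and MT-RNR2 (-0.29 ± 0.08, adjusted p = 0.00446). Over all genes 11.9% were lower.

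Set directly against wortmannin, in a comparison added after the data were seen, 130 µg/mL CR had 6 of the 10 higher and 1 lower, beside 40% of all genes called, 19.9% higher and 20.2% lower. SUPV3L1 averaged 46.6 ± 1.91 CPM in 130 µg/mL CR and 31.7 ± 0.85 CPM under wortmannin, or 0.56 ± 0.05 on the log2 scale (edgeR adjusted p = 4.63e-13). LRPPRC (0.38 ± 0.04, adjusted p = 1.1e-11), PNPT1 (0.34 ± 0.03, adjusted p = 1.02e-11) and SLIRP (0.52 ± 0.14, adjusted p = 0.00179) were higher too, and in each no library of the 2 treatments overlapped. POLRMT was the 1 lower gene (-0.17 ± 0.05, adjusted p = 0.00973), and its call was lost in 3 of 14 settings: with no filter, without replicate 3 of 130 µg/mL CR, and without wortmannin replicate 1, where the difference was -0.091 (adjusted p = 0.234). The count of 7 was 4 without replicate 3 of 130 µg/mL CR, and the calls of TFB1M (adjusted p = 0.0494) and TFB2M (adjusted p = 0.0284) were lost in 9 and 4 of 14 settings.

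Across the 20 groups, 9 of the 10 genes differed somewhere by edgeR's test on all 19 treated groups together, beside 52% of all genes, and TEFM did not (adjusted p = 0.293). Replicate number 1 or 3 left out reduced the 9 to 5. The highest CR dose had the lowest mean of POLRMT, 47.3 ± 2.01 CPM, with 230 µg/mL SR next at 51.7 ± 2.90 CPM, and those libraries overlapped. It also had the lowest mean of POLG, with both other CR doses next, and the highest means of LRPPRC, PNPT1 and SUPV3L1. The second highest was 26 µg/mL CR for LRPPRC (479.7 ± 21.1 CPM, against 496 ± 10.9 at 130 µg/mL) and for SUPV3L1 (43.6 ± 0.96, against 46.6 ± 1.91 CPM), and in both genes these libraries overlapped. For PNPT1 it was another extract, 100 µg/mL ZRR, at 94.2 ± 0.74 CPM against 96.9 ± 1.92 CPM in 130 µg/mL CR. Those libraries overlapped as well.

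At the other end, wortmannin had the lowest mean of LRPPRC, SLIRP, PNPT1, SUPV3L1 and TFB2M. For LRPPRC its 381 ± 10.2 CPM stood below the next group, 20 µg/mL ZRR at 418 ± 4.69 CPM, with no overlap of libraries. The same held for SUPV3L1 (31.7 ± 0.85 CPM, with 20 µg/mL ZR next at 38.1 ± 0.52), PNPT1 (76.4 ± 1.36 CPM, with 20 µg/mL ZF next at 85.8 ± 1.95) and SLIRP (63.7 ± 2.97 CPM, with 230 µg/mL SR next at 78.6 ± 7.44). For TFB2M the next group, 500 µg/mL ZR, overlapped it.

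The other extracts gave 1 call among the 10 genes. Of the 5 high doses, SR alone gave a call, beside 23.9% of all genes, 13% higher and 10.9% lower: TFAM had 102, 100.1 and 102 CPM in 230 µg/mL SR, against 114, 112 and 108 CPM in vehicle (log2 fold change -0.14 ± 0.04, edgeR adjusted p = 0.0121). Without vehicle replicate 1 the SR call was lost, and without replicate 2 of 230 µg/mL SR TFB1M was called as well. By edgeR, 500 µg/mL gave 0 of 10 for ZRR, ZR, PT and ZF alike, beside 4.03% of all genes for ZRR, 5.35% for ZR, 1.4% for PT and 0.00584% for ZF. At an unadjusted p under 0.05 there was 1 of 10 for ZRR, 1 for ZF and 0 for ZR and PT, and DESeq2 called 0 in each. For 230 µg/mL SR it was 4 of 10 (TFAM, POLRMT and TEFM lower, TFB1M higher), and DESeq2 called TFAM alone. POLRMT had a log2 fold change of -0.13 ± 0.055 there (edgeR adjusted p = 0.0791), with every SR library below every vehicle library. Adjusting for length slope, or dropping the 4 low-slope libraries, gave a POLRMT call in SR, and no other setting did. The 10 lower doses of these 5 extracts gave 0 calls in 100 pairs of gene and group, beside 0.137% of all such pairs over all genes, 6 of them with an unadjusted p under 0.05 and 0 called by DESeq2, and the largest log2 fold change among them was 0.22 in size. Whether a call in CR and none in another extract differ was tested for ZF, whose sample codes begin with the same number as those of CR.

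**Figure D4:**
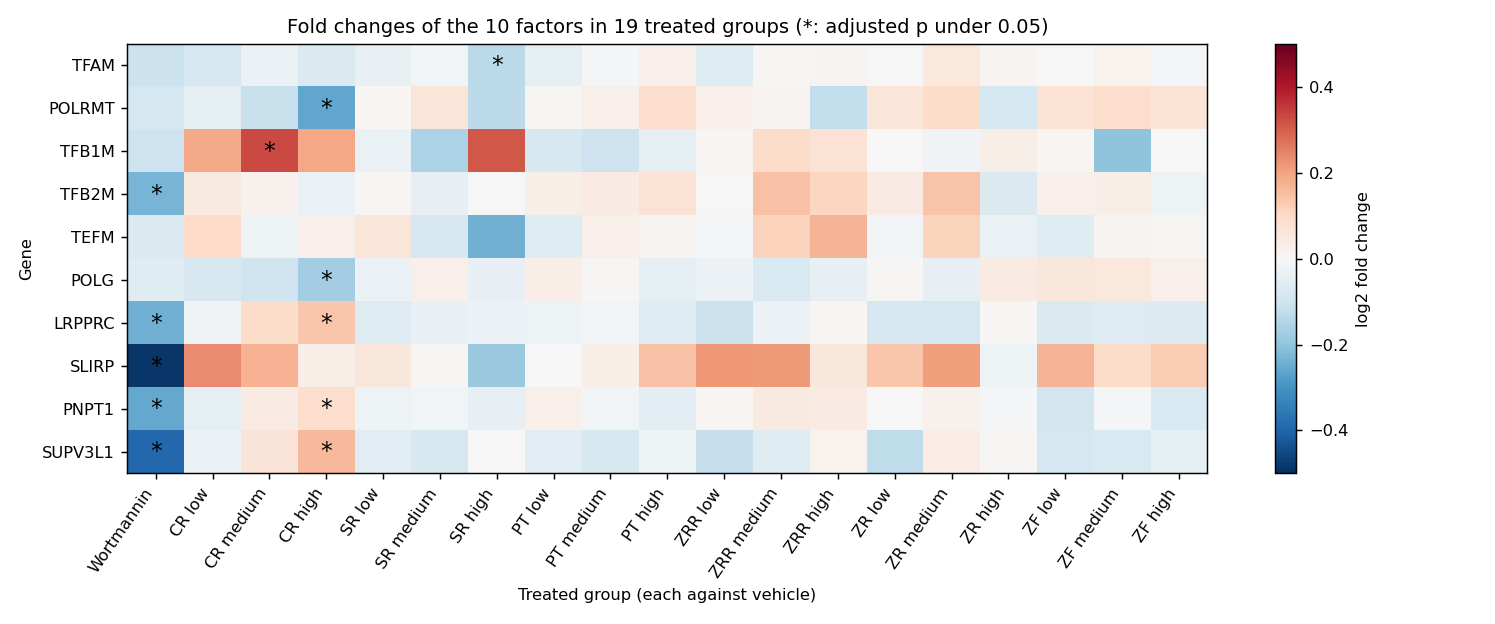
Log2 fold change against vehicle (colour, blue lower and red higher, scale limited to 0.5 either way) of the 10 factors (rows) in each of 19 treated groups (columns, 3 libraries each), from edgeR. Stars mark an adjusted p under 0.05: 5 stand under wortmannin, 5 under CR high, 1 under CR medium, 1 under SR high and 0 in the other columns.

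Against 500 µg/mL ZF, 130 µg/mL CR had the same 2 genes lower and the same 3 higher as against vehicle, beside 34% of all genes called, 17.4% higher and 16.6% lower. POLRMT had 49.5, 47.0 and 45.5 CPM in 130 µg/mL CR, against 59.7, 60.7 and 57.9 CPM in 500 µg/mL ZF (log2 fold change -0.33 ± 0.05, edgeR adjusted p = 2.53e-06). LRPPRC had 489, 508 and 489.9 CPM in 130 µg/mL CR, against 442, 407 and 440 CPM in 500 µg/mL ZF (0.21 ± 0.04, adjusted p = 1.76e-05). Neither gene's groups overlapped, and replicate 2 of 500 µg/mL ZF is 1 of the 4 libraries of low length slope, without which the same 5 genes were called. PNPT1 (0.16 ± 0.03), SUPV3L1 (0.21 ± 0.05) and POLG (-0.20 ± 0.06) passed too (adjusted p at most 0.00354), and of these the POLG libraries of the 2 groups overlapped. With only the libraries compared in the fit, POLRMT and SUPV3L1 stayed called, and POLG, LRPPRC and PNPT1 did not (adjusted p from 0.0596 to 0.109).

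The difference between the dose effects of CR and ZF, high minus low in each, passed for 0 of the 10, beside 11.4% of all genes called by edgeR, and 4 had an unadjusted p under 0.05. LRPPRC came closest, with a difference of 0.16 ± 0.05 (adjusted p = 0.0509), and POLRMT had -0.21 ± 0.08 (adjusted p = 0.0631). DESeq2 called both. With edgeR, 1 gene was called without replicate 1 of 130 µg/mL CR (POLRMT), and 1 (LRPPRC) without replicate 1 of 5.2 µg/mL CR, replicate 1 or 3 of 500 µg/mL ZF, or replicate 1 of 20 µg/mL ZF.

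Other genes of mitochondrial RNA and DNA metabolism moved in both directions in 130 µg/mL CR. Of 36 genes that process or modify mitochondrial RNA, 6 were higher and 13 lower, beside 18.5% higher and 16.7% lower over all genes. Their median log2 fold change was -0.040, against 0.008 over all genes. TRMU, which thiolates mitochondrial transfer RNAs, had 25.5 ± 0.26 CPM in 130 µg/mL CR and 36.5 ± 1.48 CPM in vehicle (-0.52 ± 0.06, edgeR adjusted p = 1.22e-10). FASTKD5, needed to mature messenger RNAs that transfer RNAs do not flank, had 43.6 ± 1.71 CPM in 130 µg/mL CR and 57.4 ± 0.93 CPM in vehicle (-0.40 ± 0.05, adjusted p = 9.93e-09). MTO1, a transfer RNA modification enzyme, was higher at 19.6 ± 0.39 CPM in 130 µg/mL CR and 15.3 ± 0.80 CPM in vehicle (0.36 ± 0.06, adjusted p = 9.82e-06).

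Of 16 genes of mitochondrial DNA replication and nucleotide supply, 6 were higher and 2 lower in 130 µg/mL CR, with a median of 0.014. The mitochondrial topoisomerase TOP1MT rose (log2 fold change 0.59 ± 0.07, edgeR adjusted p = 2.08e-09), as did the thymidine kinase TK2 (0.52 ± 0.06, adjusted p = 2.94e-10), while the nuclease and helicase DNA2 fell (-0.58 ± 0.05, adjusted p = 1.45e-12). Of 13 mitochondrial proteases and chaperones 3 were higher and 3 lower, with a median of -0.015, beside 18.5% higher and 16.7% lower over all genes. The protease LONP1, which degrades TFAM among other matrix proteins, had 129.8 ± 2.14 CPM in 130 µg/mL CR and 81.0 ± 0.75 CPM in vehicle (0.68 ± 0.05, adjusted p = 1.38e-15). HSPE1, the co-chaperonin of the mitochondrial matrix, fell, with 217 ± 19.3 CPM in 130 µg/mL CR and 308.5 ± 34.3 CPM in vehicle (-0.51 ± 0.13, adjusted p = 0.00249). Of 14 tested genes of RNA sensing and the interferon response, 1 was higher and 2 lower. The median log2 fold change of that list was 0.19, against 0.008 over all genes, opposite in sign to OAS1, which senses double-stranded RNA and fell (-0.95 ± 0.08, adjusted p = 1.02e-14).

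Of 10 tested nuclear regulators of mitochondrial genes, 2 were higher and 2 lower in 130 µg/mL CR. The shares over all genes were 18.5% higher and 16.7% lower. NRF1, whose motif lay before POLRMT, TFAM and TFB1M, had 15.1 ± 0.66 CPM in 130 µg/mL CR and 19.03 ± 0.83 CPM in vehicle (log2 fold change -0.33 ± 0.08, edgeR adjusted p = 0.000765). Under wortmannin NRF1 was lower by a like amount (-0.33 ± 0.08, adjusted p = 0.0016). MYC rose in 130 µg/mL CR (0.46 ± 0.05, adjusted p = 5.01e-12) and did not pass under wortmannin (adjusted p = 0.604).

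Under wortmannin the RNA processing list had 1 of 36 higher and 21 lower (median log2 fold change -0.19). The protease and chaperone list had 1 of 13 higher and 9 lower (median -0.21). Over all genes 13.4% were higher and 11.9% lower, and the median was 0.010. LONP1 (-0.21 ± 0.05, edgeR adjusted p = 0.00206) and the chaperone HSPA9 (-0.39 ± 0.03, adjusted p = 2.47e-13) were lower under wortmannin, and HSPA9 was higher in 130 µg/mL CR (0.49 ± 0.03, adjusted p = 8.28e-18). HSPE1 was lower under wortmannin too (-0.46 ± 0.13, adjusted p = 0.00841). TRMU and FASTKD5 were lower in both treatments, with log2 fold changes under wortmannin of -0.33 ± 0.06 for TRMU (adjusted p = 7.36e-06) and -0.24 ± 0.05 for FASTKD5 (adjusted p = 0.000253).

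Over the 20 group means, which share the normalisation and the vehicle and wortmannin groups, LRPPRC and SUPV3L1 were the most alike of the 10, with a Pearson r of 0.88, and PNPT1 followed SUPV3L1 at 0.81. POLRMT was most like POLG (0.66) and least like TFB1M (-0.65). SLIRP was most like TFB2M (0.78) and not its partner LRPPRC. These partners have the shortest (SLIRP, 865 bases) and the longest (LRPPRC, 6335 bases) transcripts of the 10. Fold changes against vehicle went with transcript length in the extract groups, and the part of length in these likenesses was not tested. Among 12417 genes with a mean log2 CPM of at least 1, those most like LRPPRC were CDV3 (0.96), QRSL1 (0.95) and NCKAP1 (0.94). For SUPV3L1 they were MSANTD3 (0.93), the nucleolar helicase DDX21 (0.92) and the receptor AXL (0.92). For PNPT1 they were the nucleolar protein NOLC1 (0.931), PTPN2 (0.928) and DDX21 (0.902). For POLRMT they were MSRB1 (0.940), EFHD2 (0.937) and COMMD9 (0.937). For SLIRP they were the nucleolar protein NOP58 (0.965), TPRKB (0.961) and ATP5MC1 (0.961). These values describe likeness over these groups only.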

How the data were processed

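RNA of A549 cells was made into directional messenger RNA libraries and sequenced as paired reads, per the labels' protocols. The authors deposited estimated counts for Ensembl genes, which are not normalised, as their differing totals show. RSEM 1.3.3, STAR 2.7.3a, Trim Galore 0.6.5 and FastQC 0.11.9 are named without roles, per the submitters' processing notes, and the build is hg38 (GRCh38). The sources used here name neither the annotation release nor the strand setting. Of 269 libraries in the table, 60 carry labels of this series and 209 columns were not used. For the vehicle, 0.1% DMSO is in the labels and 2% in the design text.

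Estimated counts were rounded. Identifiers were named from a current table (56558) or GENCODE 29 (497), and 3620, with 0.0579% of counts, had no name. All 60 libraries entered 1 fit of edgeR 4.0.16 in R 4.3.3 (quasi-likelihood with the robust option, TMM, genes filtered with filterByExpr on the groups, 1 coefficient per group, 40 residual degrees of freedom), with Benjamini-Hochberg adjustment over 17129 genes within each comparison and a threshold of 0.05. CPM use TMM-adjusted library sizes, and TPM use the longest GENCODE 29 transcript. The biological coefficient of variation was 7.04%. No 2 replicates agreed within sampling noise, with chi-square values per degree of freedom of 2.2 or more. The fit was tested on simulated data.

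The 10 genes, the pathway lists and the motifs were chosen with earlier results of these data known. Beside the 10, the text names from each list up to 4 genes by a rule: called in one direction for 130 µg/mL CR against vehicle and against 5.2 µg/mL, smallest p against 5.2 µg/mL first. All 15 mitochondrial messenger and ribosomal RNAs may be named. Same-numbered replicates of different groups deviated together in 0 of 24 comparisons (every pair above a correlation of 0.1), so the numbers were not used as pairs. Alternatives were DESeq2's size factors and test (1.42.0), normalisation without the mitochondrial genome, no filter, a replicate block, only the libraries compared and each library left out. The length slope of each library as a covariate was also tried. Fits without 4 libraries of low length slope, and 130 µg/mL CR against wortmannin, were added after the data were seen.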

Additional observations from a re-analysis of the deposited data

How the results depend on the processing

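Over the alternatives run, no fold change of the 10 genes turned round where it was called: of 1460 values, 1375 kept their side of the threshold, 57 lost and 28 gained a call. Among these and the list genes, 82 sign changes were of values called in neither setting. The count of called genes moved by over 1.5 times, or to or from 0, in 38 of 237 cases. With no filter on low counts it was 1 for 130 µg/mL CR against vehicle, 0 for 26 µg/mL and 1 for 5.2 µg/mL against vehicle, 2 for 130 against 5.2 µg/mL, 0 for SR and 3 in the lower doses of the other extracts. With the length slope it was 2 for 26 µg/mL CR against vehicle, 1 for 26 against 5.2 µg/mL, 2 for the CR and ZF dose effects and 4 for SR. With only the libraries compared it was 1 for 130 against 5.2 µg/mL CR, 2 for CR against ZF and 2 for SR. DESeq2's test gave 1 for 130 against 26 µg/mL, 1 for 26 against 5.2 µg/mL and 2 for the difference of dose effects. DESeq2's size factors gave 0 for 26 µg/mL against vehicle. Without the 4 libraries of low length slope SR gave 3. With the replicate block 26 µg/mL CR against vehicle gave 0 called genes in place of 1, and 130 µg/mL against vehicle gave 5. The replicate numbers do not pair the samples (lowest correlation of a pair -0.143). With 1 library left out the counts ranged over 2 to 5 for 130 µg/mL CR against vehicle, 0 to 0 for 26 µg/mL, 0 to 1 for the difference of dose effects, 0 to 2 for SR and 4 to 6 for CR against wortmannin. With 1 replicate number left out of all groups, 5 to 6 genes differed over the 20 groups. The cause was not tested. Standard errors for 130 µg/mL CR against vehicle ranged over the 10 genes from 0.034 for PNPT1 to 0.135 for SLIRP, and TFB1M, with the fewest counts, had 0.124.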
